A study of Mus musculus with 28 samples.

Results

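The transcriptome of NIH3T3 K-ras cells was set against that of NIH3T3 cells after 24 h in medium with 25 mM glucose. The comparison used 4 of the 28 arrays in the series, chosen by their titles: 2 of NIH3T3 K-ras (called K-ras below) and 2 of NIH3T3. NIH3T3 is an immortalised line of mouse embryonic fibroblasts, and the name of the other line marks it as its K-ras derivative. The labels do not give the K-ras allele, its promoter or vector, or how the line was selected. Each kind of cell was 1 line, so the arrays of a group repeat the culture and not the derivation of the line. The whole series followed both lines at 25 and 1 mM glucose, over 0, 24, 48 and 72 h after a change of medium, in 14 groups of 2 arrays. Both lines had been grown in DMEM with newborn calf serum and glutamine for 18 h when the medium was changed, and the new medium again contained 4 mM glutamine. The labels call the arrays of a group biological replicates and say no more of their origin, so p-values measure the spread between these arrays.

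K-ras is a small GTPase that cycles between an inactive GDP-bound and an active GTP-bound state. Active RAS proteins recruit RAF kinases, which switch on MEK and then ERK, and ERK in turn raises early transcription factors of the EGR and FOS families together with its own inhibitors, the Sprouty and Spred proteins and the dual-specificity phosphatases. NIH3T3 cells are the classical recipient in which oncogenic RAS genes were recognised by the transformed foci they form, and activated RAS is known in fibroblasts to alter adhesion, matrix, secreted factors and glucose use.

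All values are log2 ratios of a gene on an array to that gene's own median over the 28 arrays. A value shows how 1 gene differs between arrays and carries no absolute level, so genes are not ranked here by abundance, and signal over background is unknown. For this reason the labelled cell type could not be checked by the presence or absence of markers. The probe sets of Hras and Areg were not analysed here. Over all genes, the K-ras arrays correlated with each other at 0.34 and the NIH3T3 arrays at 0.58, while the 4 correlations across lines lay between -0.36 and -0.18. The genes of each array had an interquartile range of 0.29 and 0.33 in K-ras and of 0.49 and 0.53 in NIH3T3. The spiked bacterial bioC control read -0.19 and 0.55 on the K-ras arrays, against -0.83 and -1.22 on the NIH3T3 arrays, and the 18S control read -0.28 and 0.35 against 0.95 and 0.80. The labels name no batch, and the part of such array differences and of the line cannot be told apart. Elsewhere in the series 6 arrays carried the profile of the line opposite to their label. None of these 6 was among the 4 arrays compared or among the 12 arrays fitted, which were all arrays at 25 mM glucose and 24, 48 or 72 h.

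After 24 h, 589 of 18193 genes were higher in K-ras and 335 were lower (limma, Benjamini-Hochberg adjusted p under 0.05 over all genes, called below). The called genes made up 5.08% of all genes, 3.24% higher and 1.84% lower. The median log2 fold change, K-ras minus NIH3T3, was 1.69 among the genes called higher and -1.55 among those called lower, against -0.10 over all genes. A difference of at least 3 log2 units was measured in 64 genes called higher and 41 called lower. The 4 arrays did not overlap between lines in any of the 924 called genes, which says little alone, since they did not overlap in 51.1% of all genes (20.9% higher and 30.2% lower in K-ras). In bulk RNA, fewer cells of a kind and less of a transcript per cell cannot be told apart. The number of calls depended on which arrays set the spread. It was 12 (0.066% of genes) when all 28 arrays were fitted and 447 with the 16 arrays at 25 mM glucose. With all arrays except the 6 that carried the profile of the other line it was 1144. Without an array of the comparison it was 283 (K-ras replicate 1), 326 (K-ras replicate 2), 379 (NIH3T3 replicate 1) or 577 (NIH3T3 replicate 2). Leaving out an NIH3T3 array at 72 h gave 592, and leaving out a K-ras array at 72 h gave 1419. A core of 227 genes, 139 higher and 88 lower, was called in the full comparison and again without each of the 4 arrays in turn. The sign of the difference was the same in all 924 genes under those fits. This was fixed in advance, since the arrays of these genes did not overlap between lines. In what follows, "held" marks a call that was kept without each of the 4 arrays, and where a call did not hold the range of its 4 adjusted p-values is given.

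The genes furthest apart were Crabp1 and Il33, both higher in K-ras. Crabp1, which encodes a cytoplasmic binding protein for retinoic acid, read 2.19 and 2.26 in K-ras, against -5.81 and -5.96 in NIH3T3, a difference of 8.11 ± 0.24 (standard error, as for all differences below; adjusted p = 5.24e-07). Il33, an alarmin cytokine of the interleukin-1 family, read 2.24 and 2.05 in K-ras, against -5.67 and -5.88 in NIH3T3, a difference of 7.92 ± 0.26 (adjusted p = 6.02e-07). In each of these genes the K-ras arrays lay far above the NIH3T3 arrays, whose values came near the lowest in the whole table, -6.64. At the other end Krt14, a keratin of basal epithelial cells, read -4.39 and -4.58 in K-ras, against 1.88 and 1.35 in NIH3T3, a difference of -6.11 ± 0.26 (adjusted p = 3.36e-06). Its other 2 probe sets gave -5.56 and -0.29.

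The promoters of these 3 genes are shown because they belong to the largest rises and the largest fall. Each line holds the 250 bases before a transcription start, from RefSeq on build GRCm38.p6, and Il33 has 2 starts in the table. Capitals mark matches, on either strand, to the AP-1 site TGANTCA (bound by FOS and JUN family dimers), the TATA box TATAAA, the GC box GGGCGG and the CCAAT box CCAAT. No matches overlap in the windows shown.
Crabp1, chr9:54764498-54764747, plus strand: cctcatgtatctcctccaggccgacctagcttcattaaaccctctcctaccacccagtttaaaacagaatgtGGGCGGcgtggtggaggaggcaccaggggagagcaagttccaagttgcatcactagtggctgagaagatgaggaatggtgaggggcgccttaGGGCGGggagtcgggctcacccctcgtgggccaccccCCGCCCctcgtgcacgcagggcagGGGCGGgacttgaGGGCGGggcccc
Il33 (upstream start), chr19:29924863-29925112, plus strand: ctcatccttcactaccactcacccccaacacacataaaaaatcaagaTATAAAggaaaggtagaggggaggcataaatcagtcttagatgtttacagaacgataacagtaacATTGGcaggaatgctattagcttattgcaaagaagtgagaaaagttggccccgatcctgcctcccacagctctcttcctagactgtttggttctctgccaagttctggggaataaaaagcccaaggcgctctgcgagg
Il33 (downstream start), chr19:29945540-29945789, plus strand: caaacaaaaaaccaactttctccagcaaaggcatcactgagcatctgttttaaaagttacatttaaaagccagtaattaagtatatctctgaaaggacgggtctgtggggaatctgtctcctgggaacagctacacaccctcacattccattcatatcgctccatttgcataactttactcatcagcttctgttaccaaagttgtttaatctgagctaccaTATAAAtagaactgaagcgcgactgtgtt
Krt14, chr11:100206031-100206280, minus strand: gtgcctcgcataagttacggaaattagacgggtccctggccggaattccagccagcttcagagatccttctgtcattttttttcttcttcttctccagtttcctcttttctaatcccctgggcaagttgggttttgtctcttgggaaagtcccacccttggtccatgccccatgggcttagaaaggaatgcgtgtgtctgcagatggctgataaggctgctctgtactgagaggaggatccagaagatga
The Crabp1 window held 5 GC boxes, the last of them beginning 12 bases before the start. The upstream Il33 window held a TATA box and a CCAAT box, and the downstream one held a TATA box beginning 29 bases before the start. None of these letters was found in the Krt14 window, and the AP-1 letters were found in none of the 4 windows. Over all 32851 windows of this length, 6.75% held the AP-1 letters, 12.4% the TATA box, 32.7% the GC box and 33.8% the CCAAT box. A match describes the letters and does not show that a factor binds there.

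Below Crabp1 and Il33, the next largest rises belonged to genes of varied function. Cytip, a partner of cytohesins known from leukocytes, read 3.68 and 4.10 in K-ras, against -2.04 and -1.93 in NIH3T3 (difference 5.88 ± 0.24). Defb41, of the beta-defensin family, read 1.81 and 1.52 against -3.27 and -3.81, and Ngef, a guanine nucleotide exchange factor, read 1.65 and 1.96 against -3.02 and -3.63. The differences were 5.20 ± 0.24 for Defb41 and 5.13 ± 0.72 for Ngef. Ccbe1, a secreted protein needed for lymphatic growth, differed by 5.02 ± 0.25, although another of its probe sets showed 0.00. Mgst2, a microsomal glutathione transferase, read 2.43 and 2.46 in K-ras, against -2.23 and -2.24 in NIH3T3 (difference 4.68 ± 0.34). Hs6st2, which sulphates heparan sulphate chains, and Ahr, the aryl hydrocarbon receptor, differed by 4.53 ± 0.33 and 4.48 ± 0.23. Other probe sets of Hs6st2 and Ahr showed values down to -0.38 and 0.00. Cthrc1, a secreted protein of matrix remodelling, Cck, which encodes the peptide hormone cholecystokinin, and Ramp3, an accessory protein of the adrenomedullin receptor, completed the 12 with differences of 4.42 ± 0.31, 4.38 ± 0.97 and 4.28 ± 0.33. The adjusted p-values of the 12 lay between 5.24e-07 (Crabp1) and 0.0325 (Cck). All 12 calls held except that of Cck, whose adjusted p was 0.134 to 0.157 without an array.

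The largest falls after Krt14 included genes of muscle, retinoid and vascular biology. Fhl1, a LIM-domain protein of muscle, read -1.10 and -1.18 in K-ras, against 4.07 and 4.09 in NIH3T3 (difference -5.22 ± 0.52), while its other probe set showed -0.17. Anxa8, a calcium-dependent phospholipid-binding annexin, read -3.52 and -4.61 against 1.00 and 0.94, with 2 probe sets in accord at -5.04 ± 0.32 and -5.19. Ripk3, the kinase of necroptotic cell death, read -1.88 and -2.43 against 2.94 and 2.56 (difference -4.90 ± 0.38). In all 3 genes the K-ras arrays were the low ones by a margin several times the distance between replicates. Sulf1, an extracellular enzyme that removes sulphate from heparan sulphate, differed by -4.78 ± 0.22, with another probe set at 0.02. Adm, which encodes the vasodilator peptide adrenomedullin, read -3.44 and -3.42 in K-ras, against 1.53 and 1.01 in NIH3T3 (difference -4.70 ± 0.31). Thus the ligand Adm fell while Ramp3, the accessory protein of its receptor, rose. Nhsl2, Mustn1, Aldh1a1, Ptchd4, Klf2 and Lgals9 also fell, with differences of -4.33, -4.19, -4.12, -4.10, -4.06 and -4.01. Aldh1a1 makes retinoic acid from retinaldehyde, Klf2 is a zinc-finger transcription factor best known from endothelium and resting T cells, and Lgals9 is a galectin. The calls of all 12 held except that of Ptchd4 (adjusted p 0.0711 to 0.115 without an array), and another probe set of Nhsl2 showed -0.10.

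**Figure D1:**
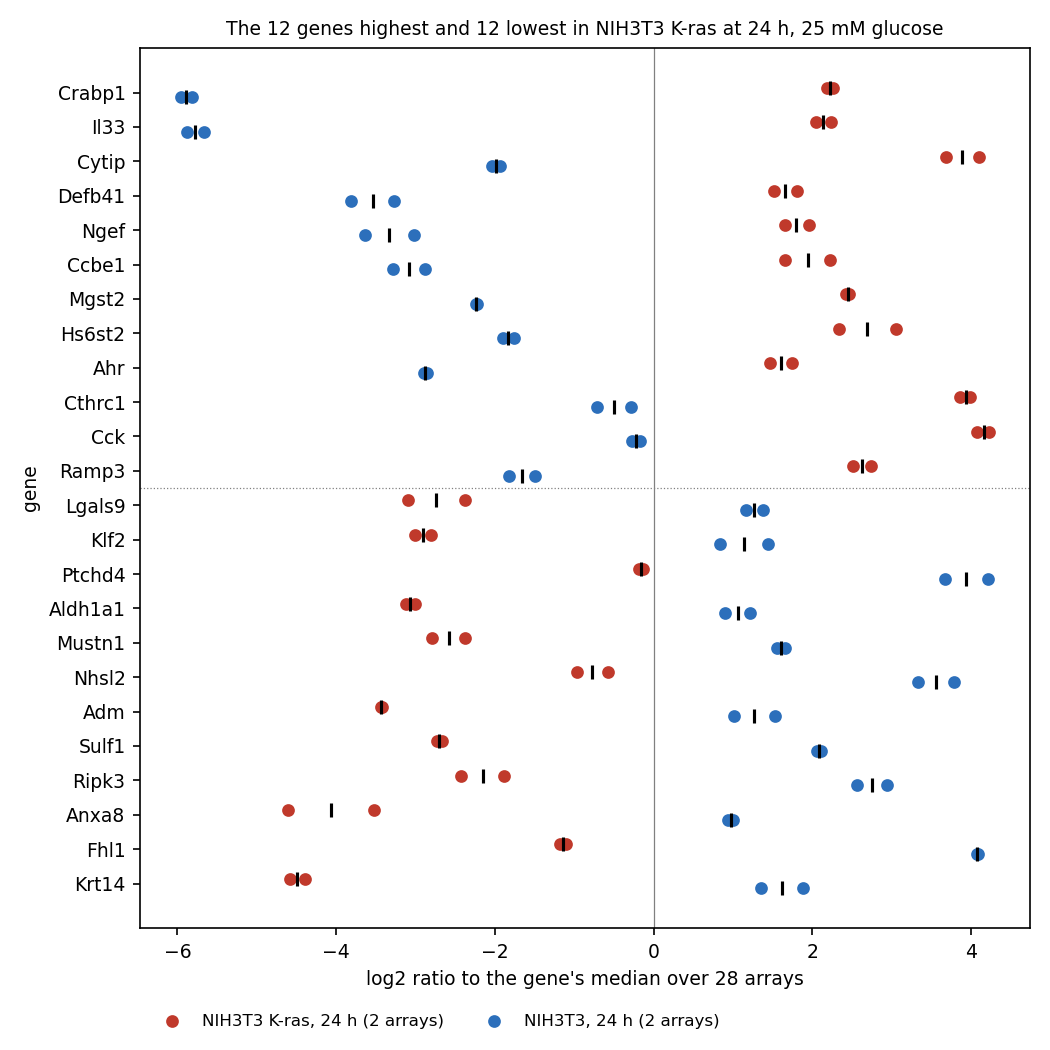
Log2 ratio to each gene's median over 28 arrays (horizontal axis) in the 12 named genes furthest up and the 12 furthest down in K-ras at 24 h in 25 mM glucose. Red points are the 2 K-ras arrays, blue points the 2 NIH3T3 arrays and black ticks the means. In Crabp1 the K-ras arrays lie at 2.19 and 2.26 and the NIH3T3 arrays at -5.81 and -5.96, and no gene shown has overlapping lines.

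Most direct readouts of RAS-MAPK signalling were not called at this time. Of 33 measured output genes 4 were called higher and 0 lower, that is 12.1% higher against 3.24% of all genes. Their median was 0.44 against -0.10 over all genes, and 26 of the 33 were positive. Egr3, an early growth response transcription factor, read 1.32 and 1.19 in K-ras, against -2.74 and -2.68 in NIH3T3 (difference 3.96 ± 0.41, adjusted p = 0.000761), with another probe set at -0.33. Of the feedback inhibitors, Spred1 read 0.80 and 0.30 in K-ras, against -2.42 and -1.92 in NIH3T3 (difference 2.72 ± 0.38), and Spry4 read 1.94 and 1.70 against -0.90 and -0.47 (difference 2.50 ± 0.24). Some other probe sets of Spred1 and Spry4 showed differences near 0, down to -0.12 and -0.01. Dusp4, a nuclear phosphatase of ERK, read 0.76 and 0.50 in K-ras, against -0.29 and -0.60 in NIH3T3 (difference 1.08 ± 0.22). The calls of Egr3, Spred1 and Spry4 held, and that of Dusp4 did not (0.0612 to 0.193). Several of the best known outputs were not called. Fosl1, the FOS-family protein FRA-1, read 0.77 and 0.50 in K-ras, against 0.14 and -0.45 in NIH3T3 (difference 0.79 ± 0.27, adjusted p = 0.145). Dusp6, a cytoplasmic ERK phosphatase, differed by 0.25 ± 0.22, Myc by 0.20 ± 0.34 and Egr1 by 0.00 ± 0.52. Ccnd1, which encodes cyclin D1, read -0.88 and 1.53 on the K-ras arrays, on either side of the 1.16 and 0.34 of NIH3T3, so that no direction could be read.

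Among 24 measured genes of the RAS and RAF-MEK-ERK machinery, 3 rose and 2 fell, with a median of 0.09. The shares were 12.5% and 8.33%, against 3.24% and 1.84% of all genes. Ralgds, which activates Ral GTPases downstream of RAS, read 0.33 and 0.34 in K-ras, against -2.31 and -2.16 in NIH3T3 (difference 2.57 ± 0.47). Rasa1 and Rasa2, which are GTPase-activating proteins that turn RAS off, differed by 1.87 ± 0.24 and 1.89 ± 0.31. The RAS relative Rras2 fell by 1.81 ± 0.29, and the exchange factor Rasgrp3 by 1.57. The call of Rasa1 held, and that of Rasgrp3 was kept in 1 of the 4 fits (0.0366 to 0.166). Those of Rasa2 (0.0451 to 0.0710) and Rras2 (0.0431 to 0.0686) were kept in 2 of the 4 fits and that of Ralgds in none (0.0656 to 0.0917). Nras, another RAS gene, read -0.04 and -0.08 in K-ras, against 0.47 and 0.30 in NIH3T3 (difference -0.44 ± 0.30, not called).

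Of 29 measured genes of other growth factors and receptors 5 rose and 1 fell, 17.2% and 3.45%, and the median was 0.25. The receptor genes Pdgfra and Fgfr2 differed by 2.34 ± 0.54 and 1.58 ± 0.24, and the ligand genes Vegfc, Pdgfc and Fgf7 by 1.74 ± 0.30, 0.98 and 0.88. Igfbp4, a secreted protein that binds and restrains insulin-like growth factors, read -3.08 and -3.90 in K-ras, against 0.60 and 0.32 in NIH3T3 (difference -3.95 ± 0.52), and all 5 of its other probe sets were also lower. The call of Igfbp4 held. Those of Pdgfra (0.141 to 0.201), Vegfc (0.0422 to 0.0943) and Fgfr2 (0.0267 to 0.0515) did not, nor did those of Pdgfc (0.0767 to 0.143) and Fgf7 (0.0636 to 0.312), and another Fgfr2 probe set showed -0.12. Of 14 EGF family ligands and receptors 1 rose, Lrig1, a membrane protein that lowers EGF receptor levels, by 1.54 ± 0.27 (0.0465 to 0.107 without an array; another probe set at -0.74). The ligands Ereg and Hbegf were not called. Ereg read 0.83 and 0.98 in K-ras, against -0.14 and -0.01 in NIH3T3. The Hbegf arrays overlapped, with -0.20 and 1.44 in K-ras against 1.10 and 0.60 in NIH3T3.

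Of 30 measured genes of the TGF-beta and BMP pathway 4 rose and 0 fell (13.3% higher), with a median of 0.26. Id4, an inhibitory helix-loop-helix protein induced by BMPs, read 1.94 and 2.35 in K-ras, against -1.21 and -1.86 in NIH3T3 (difference 3.68 ± 0.39), and its call held. Tgfbi, a matrix protein named for its induction by TGF-beta, read 0.38 and 0.00 against -3.12 and -3.21 (difference 3.35 ± 0.70). The ligand gene Tgfb3 differed by 2.17 ± 0.41 and Fst, which encodes the activin-binding protein follistatin, by 1.95 ± 0.46. The calls of Tgfbi (0.103 to 0.158) and Fst (0.0812 to 0.269) were kept in none of the 4 fits and that of Tgfb3 in 1 (0.0216 to 0.107). In the Wnt and Notch list of 26 genes, 2 rose and 2 fell (7.69% each). The Wnt receptors Fzd7 and Fzd2 fell by 2.11 ± 0.29 and 1.61 ± 0.23, with another Fzd7 probe set at -0.43 and other Fzd2 probe sets at -1.63 and -0.06, while Dkk3 and Dkk2, of the Dickkopf family of secreted Wnt regulators, rose by 1.93 ± 0.27 and 1.58 ± 0.37. These calls held except that of Dkk2 (0.0259 to 0.238). Of 32 Hox and mesodermal factors 2 rose and 3 fell (6.25% and 9.38%). Hoxb9 read -0.60 and -0.73 in K-ras, against 1.78 and 1.13 in NIH3T3 (difference -2.12 ± 0.30, held). Hoxa3 and Foxf1 fell by 1.70 ± 0.40 and 1.52 ± 0.30, and Hoxd8 and Twist1 rose by 0.98 and 0.95. None of these 4 calls held, with ranges of 0.0176 to 0.189 for Hoxa3, 0.00828 to 0.130 for Foxf1, 0.0860 to 0.215 for Hoxd8 and 0.123 to 0.214 for Twist1. Other probe sets lay between -0.55 and -0.02 for Hoxa3 and at -0.31 for Foxf1. Hox genes mark position along the body axis and are retained in cultured fibroblasts.

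Secreted inflammatory signals differed gene by gene. Of 30 measured chemokine and cytokine genes 4 rose and 1 fell (13.3% and 3.33%), and the list median was -0.07, close to that of all genes. Beside Il33, the monocyte chemoattractant Ccl2 read 1.82 and 2.25 in K-ras, against -0.11 and -0.49 in NIH3T3 (difference 2.34 ± 0.31). Its neighbour in function Ccl7 differed by 1.25, and Ptges, the terminal enzyme of prostaglandin E synthesis, by 1.80 ± 0.25. Cxcl1, a neutrophil chemoattractant, went the other way, with -0.18 and 0.03 in K-ras against 2.49 and 2.50 in NIH3T3 (difference -2.57 ± 0.42, adjusted p = 0.00872), and its 3 probe sets had the same sign. The calls of Il33, Ccl2 and Ptges held, and that of Cxcl1 was lost without any of the 4 arrays (0.0514 to 0.0764), as was that of Ccl7 (0.101 to 0.173). Of 31 interferon response genes 0 rose and 1 fell (3.23%, against 1.84% of all genes), and the median was -0.18. The gene was Ifit3, which is induced by type I interferon, with -0.49 and -0.45 in K-ras against 1.05 and 1.10 in NIH3T3 (difference -1.55 ± 0.21, held).

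Of 36 matrix glycoproteins and proteoglycans 4 rose and 1 fell (11.1% and 2.78%), with a median of 0.01. Thbs2, an antiangiogenic thrombospondin, read 1.86 and 1.79 in K-ras, against -1.76 and -2.95 in NIH3T3 (difference 4.18 ± 0.34). Has2, which synthesises hyaluronan, read 3.04 and 3.27 against -0.57 and -0.94 (difference 3.91 ± 0.37). Mfap5, a microfibril protein, read -1.91 and -2.96 against 1.09 and 0.89 (difference -3.43 ± 0.37). Tnc, tenascin C, rose by 2.04 ± 0.27, and these 4 calls held. The collagen-binding proteoglycan Lum differed by 2.58 ± 0.59, with adjusted p between 0.139 and 0.202 without an array. Of 25 collagens 1 rose, Col27a1 by 1.65 ± 0.41, and 2 fell, Col5a2 by 1.71 ± 0.38 and Col4a2 by 1.64 ± 0.26, and none of the 3 held (0.0693 to 0.294, 0.121 to 0.173, and 0.0200 to 0.0667). Col1a1 read -0.80 and -0.89 in K-ras, against 0.34 and -0.31 in NIH3T3 (difference -0.86 ± 0.38, not called). Among 27 matrix proteases and inhibitors, the cathepsin genes Ctsk and Ctsl rose by 2.74 ± 0.29 and 1.50 ± 0.21, both held (another Ctsl probe set at -0.31), and Plat, the tissue plasminogen activator, by 1.16 ± 0.24. Timp3, an inhibitor of matrix metalloproteinases, read -1.33 and -1.85 in K-ras, against 1.52 and 0.13 in NIH3T3 (difference -2.42 ± 0.48). The calls of Plat (0.0403 to 0.151, another probe set at -0.22) and Timp3 (0.0134 to 0.138) did not hold.

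Of 29 integrin and cell adhesion genes 5 rose and 2 fell (17.2% and 6.90%), with a median of 0.04. Cdh11, a cadherin of mesenchymal cells, read 2.02 and 2.10 in K-ras, against -1.43 and -1.84 in NIH3T3 (difference 3.70 ± 0.23, held). Alcam and Pcdh7, which are cell-cell adhesion molecules, differed by 3.38 ± 0.67 and 2.88 ± 0.55, but their K-ras arrays were far apart at 0.82 and 2.62 and at 0.63 and 2.29. Without K-ras replicate 2 the adjusted p-values were 0.138 for Alcam and 0.103 for Pcdh7. Both calls were also lost without either NIH3T3 array, and were kept without K-ras replicate 1 (0.0221 and 0.0115). The integrin subunits Itga8 and Itgb7 rose by 2.50 ± 0.32 and 2.47, while Itgb5 and Itgb1, the common beta chain of many matrix receptors, fell by 1.38 and 1.02. The call of Itga8 held, and those of Itgb7 (0.0723 to 0.133), Itgb5 (0.0558 to 0.101) and Itgb1 (0.0916 to 0.208) were kept in none of the 4 fits. In the list of semaphorins, ephrins and other guidance molecules, 4 of 33 genes rose and 0 fell. Sema7a differed by 3.90 ± 0.28, Sema6d by 3.35 ± 0.24, the Robo ligand Slit3 by 2.64 ± 0.26 and the semaphorin and VEGF co-receptor Nrp1 by 2.17 ± 0.29. These 4 calls held, although other probe sets of Sema6d lay between -0.25 and 0.08 and 1 of Nrp1 at -0.26. Contractile genes and targets of serum response factor went the other way, with 0 of 28 higher and 3 lower (10.7%) and a median of -0.56. These were Fhl1, the matricellular growth factor Ccn2, with -0.08 and 0.21 in K-ras against 2.48 and 2.67 in NIH3T3 (difference -2.51 ± 0.56), and the calponin Cnn2 (difference -1.02 ± 0.23). The call of Fhl1 held and those of Ccn2 (0.124 to 0.186) and Cnn2 (0.0919 to 0.178) did not. The smooth muscle actin Acta2 read -0.06 and -0.33 in K-ras, against 0.77 and 0.65 in NIH3T3, and was not called (adjusted p = 0.0897). The skeletal actin Acta1 differed by -0.84 ± 0.33 and was not called either.

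**Figure D2:**
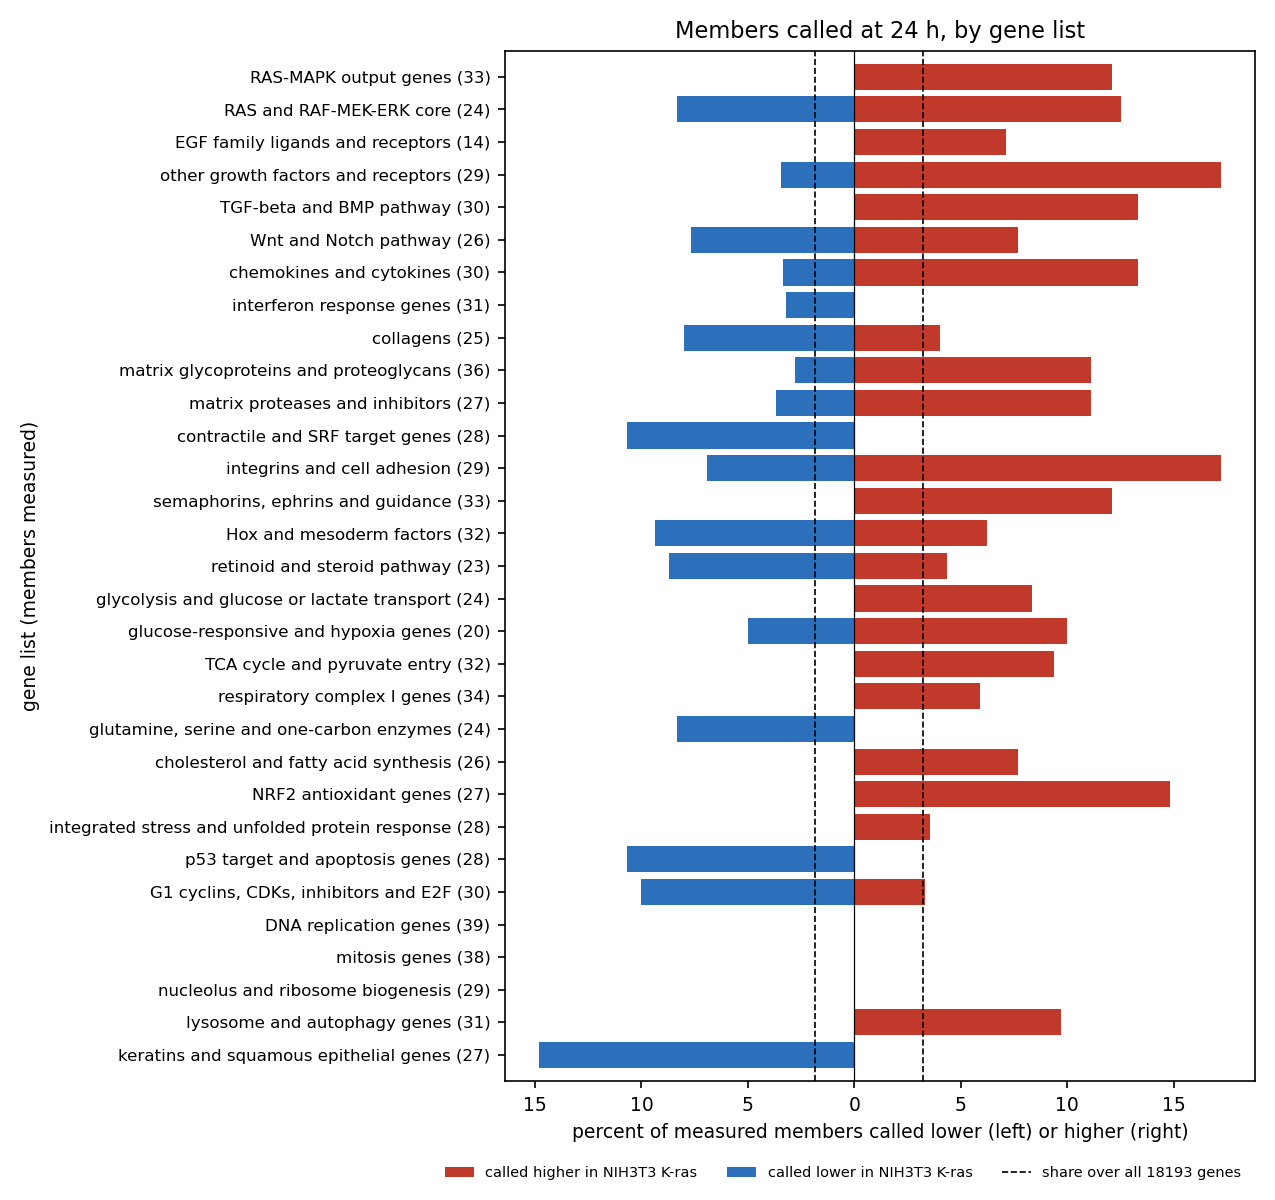
Share of the measured members of each of the 31 gene lists that was called higher (right, red) or lower (left, blue) in K-ras than in NIH3T3 at 24 h, with the number measured in brackets. The dashed lines mark the shares over all genes, 3.24% higher and 1.84% lower. The DNA replication, mitosis and nucleolus lists have no called member. The stress response list has 3.57% called higher, near the share over all genes. The EGF family list has 7.14% higher, and the collagens 4.0% higher and 8.0% lower.

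Glucose metabolism was of interest to the study, and the medium held 25 mM glucose in both groups. Of 24 genes of glycolysis and of glucose or lactate transport 2 rose and 0 fell (8.33% higher, against 3.24% of all genes), with a median of 0.04. Pdk1, a kinase that inhibits pyruvate dehydrogenase and so limits pyruvate entry into mitochondria, read 0.87 and 0.01 in K-ras, against -3.64 and -3.72 in NIH3T3 (difference 4.12 ± 0.51, adjusted p = 0.00205). Its other 3 probe sets ranged from 0.05 to 2.92. Eno2, the neuronal enolase, read 1.69 and 1.27 against -1.64 and -1.25 (difference 2.93 ± 0.42). Both calls held. The glucose transporter Slc2a1 differed by 0.80 ± 0.35, hexokinase 2 (Hk2) by -0.02 ± 0.46 and lactate dehydrogenase A (Ldha) by 0.21 ± 0.28, and none was called. The platelet phosphofructokinase gene Pfkp read -1.06 and -1.58 in K-ras, against 0.99 and 0.61 in NIH3T3, a difference of -2.12 ± 0.65 that did not pass (adjusted p = 0.106). Of 32 genes of the TCA cycle and pyruvate entry 3 rose (9.38%) and 0 fell. In this list 26 were positive, with a median of 0.29 against -0.10 over all genes. Beside Pdk1 these were its relative Pdk4, with 0.35 and 0.57 in K-ras against -1.62 and -1.51 in NIH3T3 (difference 2.02 ± 0.36), and Dld, the shared subunit of the mitochondrial 2-oxoacid dehydrogenases (difference 1.27 ± 0.27). The calls of Pdk4 (0.0564 to 0.0892) and Dld (0.0583 to 0.181, another probe set at -0.40) did not hold. Dld was nevertheless the gene named here that was also called when all 28 arrays set the spread.

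Genes that respond to glucose or to low oxygen split. Of 20 measured, Arrdc3 rose by 2.51 ± 0.33 (held), Klf10 rose by 0.76 ± 0.18 (0.0730 to 0.218 without an array) and Adm fell. Txnip and Arrdc4, arrestin-like genes that are induced when glucose is plentiful, lay lower on the K-ras arrays without passing the test. Txnip read -1.79 and -0.48 in K-ras, against 1.35 and 0.71 in NIH3T3 (adjusted p = 0.119). Arrdc4 read -0.52 and -0.43 against 1.35 and 1.04 (adjusted p = 0.0506). Of 34 genes of respiratory complex I, Ndufb5 and Ndufa1 rose (5.88%, against 3.24% of all genes), by 1.29 ± 0.28 and 1.03 ± 0.22, and the median was -0.02. In the glutamine, serine and one-carbon list 0 of 24 rose and the amino acid transporters Slc38a1 and Slc7a5 fell by 1.52 ± 0.34 and 1.51 ± 0.37. Of 26 genes of cholesterol and fatty acid synthesis, the sterol enzymes Tm7sf2 and Lss rose by 2.36 ± 0.51 and 2.06 ± 0.44. None of these 6 calls held, with adjusted p between 0.0301 and 0.208 for Ndufb5, 0.102 and 0.192 for Ndufa1, 0.0225 and 0.226 for Slc38a1, 0.102 and 0.271 for Slc7a5, 0.0943 and 0.154 for Tm7sf2, and 0.0626 and 0.181 for Lss. In the retinoid and steroid list of 23 genes, Crabp1 rose, while Aldh1a1 fell by 4.12 ± 0.25 and Vdr, the vitamin D receptor, by 2.17 ± 0.28. These 3 calls held.

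Antioxidant genes of the NRF2 programme included 4 that rose and 0 that fell among 27 (14.8% higher), with a median of 0.10. Mgst1, a membrane glutathione transferase, read 0.68 and 0.70 in K-ras, against -2.27 and -2.92 in NIH3T3 (difference 3.28 ± 0.61). Gsta4 differed by 2.42 ± 0.31, Nfe2l2, which encodes NRF2 itself, by 1.66 ± 0.24, and Gclm, a subunit of the enzyme that starts glutathione synthesis, by 1.56 ± 0.22. The calls of Gsta4 and Nfe2l2 held, that of Gclm was kept in 3 of 4 fits (0.0179 to 0.0520) and that of Mgst1 in none (0.0674 to 0.102). Other probe sets of Mgst1, Nfe2l2 and Gclm showed -0.21, 0.05 and 0.01. Of 31 lysosome and autophagy genes 3 rose and 0 fell (9.68% higher, against 3.24% of all genes), with a median of 0.31. They were Lamp2, a lysosomal membrane protein, with 0.64 and 0.27 in K-ras against -2.96 and -2.40 in NIH3T3 (difference 3.14 ± 0.53), Ctsl, and Gla, the lysosomal alpha-galactosidase (difference 1.48 ± 0.25). Lamp2 (0.0375 to 0.0863) and Gla (0.0459 to 0.0890) did not hold. In the stress response list 1 of 28 rose, the endoplasmic reticulum chaperone Dnajb9, by 2.11 ± 0.38 (0.0592 to 0.108 without an array).

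In the replication, mitosis and nucleolus lists limma called no gene. Of 39 DNA replication genes 0 were called, with 1 at an unadjusted p under 0.05, and their median was -0.40. Of 38 mitosis genes 0 were called, with 0 at an unadjusted p under 0.05, and their median was -0.27. Of 29 nucleolus and ribosome genes 0 were called, with 3 at an unadjusted p under 0.05, and their median was -0.32. On each array the median replication gene stood at 0.14 and 0.20 in K-ras, against 0.68 and 0.42 in NIH3T3. At 48 and 72 h the median differences of the replication list were 0.63 and 0.90, and those of the mitosis list 0.75 and 0.80, so the sign at 24 h was opposite to that at both later times, a change that was not tested over the lists. Among 30 genes of the G1 phase 1 rose and 3 fell (3.33% and 10.0%, against 3.24% and 1.84% of all genes). Ccng2, a cyclin that slows the cycle and is high in resting cells, read 0.16 and 0.21 in K-ras, against -3.26 and -2.96 in NIH3T3 (difference 3.29 ± 0.43, held). The kinase Cdk6, the MYC relative Mycn and the inhibitor Cdkn2c fell by 2.76 ± 0.50, 1.76 ± 0.26 and 0.94 ± 0.20. Mycn held, although its other probe sets showed 0.18 and 0.24, and Cdk6 (0.00968 to 0.0958) and Cdkn2c (0.0659 to 0.172) did not. Of 28 p53 target and apoptosis genes 0 rose and 3 fell (10.7%), with a median of -0.29: Pmaip1, the BH3-only protein NOXA, by 1.81 ± 0.29, Plk2 by 1.12 ± 0.24 and Phlda3 by 0.80 ± 0.20. None held, with adjusted p of 0.00722 to 0.0674 for Pmaip1, 0.0761 to 0.153 for Plk2 (another probe set at -0.12) and 0.0672 to 0.261 for Phlda3.

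Keratins and squamous epithelial genes were lower where they were called, with 0 of 27 higher and 4 lower (14.8% against 1.84% of all genes), and a list median of -0.26. Besides Krt14 and Anxa8, Slurp1, a secreted protein of keratinocytes, read -2.41 and -2.68 in K-ras, against 1.38 and 0.76 in NIH3T3 (difference -3.61 ± 0.44). Pkp2, a desmosomal plakophilin, differed by -2.20 ± 0.50. The first 3 held and Pkp2 did not (0.101 to 0.214, another probe set at 0.08). The other epithelial markers did not move with Krt14: Krt5, its usual partner, differed by -0.26 and Krt8 by 0.34, and 1 of 12 epithelial markers was called. Of 12 fibroblast markers 2 rose, Pdgfra and Lum, neither of which held, and the median of the list was 0.75, with 10 positive. Among markers of other cell types, 1 of 11 leukocyte genes fell (Lyz2, by 1.75 ± 0.39), 1 of 10 endothelial genes rose (Egfl7, by 0.95 ± 0.22), 1 of 7 adipocyte genes fell (Lpl, by 3.33 ± 0.42, held), and 0 of 12 skeletal muscle genes was called, with 1 at an unadjusted p under 0.05. Lyz2 (0.107 to 0.201) and Egfl7 (0.0806 to 0.280, other probe sets down to -0.20) did not hold. Median marker levels per array were -0.08 and 0.10 in K-ras against -0.68 and -1.04 in NIH3T3 for fibroblasts. For skeletal muscle they were -0.01 and 0.00 against 0.04 and 0.06. The lines did not overlap in either list, which says little alone, since they did not overlap in 51.1% of all genes. The medians were 0.04 and -0.08 in K-ras against -0.05 and 0.21 in NIH3T3 for leukocytes, and 0.26 and 0.01 against 0.11 and 0.00 for endothelium. The part of other cell types in these results was not tested.

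The difference at 24 h was next followed into the cultures taken at 48 and 72 h, which were measured on other arrays but in the same fit. Of the 589 genes higher at 24 h, 188 (31.9%) were called higher at both later times as well, 86 at 1 of them and 315 (53.5%) at neither. Of these 315 genes, 3 were called lower in K-ras at a later time. Of the 335 genes lower at 24 h, 163 (48.7%) were called at both later times, 59 at 1 and 113 (33.7%) at 24 h alone. By comparison, 2.10% and 2.07% of all genes were called higher and lower at 48 h, and 2.91% and 4.16% at 72 h. These later calls, and with them the split into lasting and 24 h genes, also depended on single arrays. The 759 calls at 48 h became 284 and 341 without K-ras replicate 1 and 2 at 48 h, and 1149 when a K-ras array at 72 h was left out. The 1287 calls at 72 h became 356 and 391 without NIH3T3 replicate 1 and 2 at 72 h and 3993 without K-ras replicate 2 at 72 h. Crabp1, Il33 and Krt14 were among the lasting differences: Crabp1 differed by 9.10 at 48 h and 9.30 at 72 h, Il33 by 9.20 and 8.70, and Krt14 by -6.13 and -5.34.

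The 315 genes called higher at 24 h alone were chosen by their call at 24 h and by the lack of that call at 48 and 72 h. A smaller difference at the later times is thus partly built into the set, and its time course is a description. Their NIH3T3 median over these genes was -1.05 at 24 h, -0.15 at 48 h and -0.10 at 72 h, while the K-ras median was 0.43, 0.30 and 0.18. Ccng2, Pdk1, Lamp2, Spred1 and Tgfbi belonged to this set. Pdk1 differed by 4.12 at 24 h, 1.37 at 48 h and 0.49 at 72 h, and Ccng2 by 3.29, 1.09 and 0.01. The NIH3T3 arrays at 48 h were far apart in both genes, at 0.34 and -1.36 for Pdk1 and 0.15 and -1.48 for Ccng2. The differences at 48 h are means over such arrays. None of the 924 genes called at 24 h passed the direct test of the 24 h difference against the mean of the later differences, so a change of the difference with time was not shown for any of these genes. With 2 arrays a group, that test called 3 of 18193 genes (0.0165%), and 2159 had an unadjusted p under 0.05.

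The 3 genes were Dio2, Fosl1 and Ranbp3l, and none was called at 24 h. Dio2, the deiodinase that activates thyroid hormone, read 0.27 and 0.64 in K-ras, against -0.44 and 0.00 in NIH3T3 at 24 h, a difference of 0.68 ± 0.28. It differed by 4.24 at 48 h and 4.13 at 72 h (24 h minus later -3.51 ± 0.34, adjusted p = 0.0291). Fosl1 differed by 0.79 at 24 h, 2.21 at 48 h and 4.99 at 72 h (24 h minus later -2.81 ± 0.33, adjusted p = 0.0477). Ranbp3l, a gene related to a nuclear export factor, read -0.08 and -0.01 in K-ras, against 0.53 and 0.69 in NIH3T3 at 24 h, and differed by -0.66, -2.18 and -4.40 over the 3 times (24 h minus later 2.63 ± 0.28, adjusted p = 0.0312). Lrrc17, a secreted leucine-rich repeat protein, differed by 0.10 ± 0.26 at 24 h, 2.54 at 48 h and 2.20 at 72 h, and missed the threshold of this test (adjusted p = 0.0652). In Dio2 the K-ras values climbed after 24 h, whereas in Fosl1 and Ranbp3l the NIH3T3 values moved. The count of this test was unstable: it was 0 with all 28 arrays, 607 without NIH3T3 replicate 2 at 48 h, 481 without K-ras replicate 2 at 72 h, 62 without NIH3T3 replicate 2 at 24 h, and 0 without K-ras replicate 1, K-ras replicate 2 or NIH3T3 replicate 1 at 24 h. The RAS-MAPK output genes had median differences of 0.44 at 24 h, 0.96 at 48 h and 1.29 at 72 h, against -0.10, -0.035 and 0.033 over all genes.

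**Figure D3:**
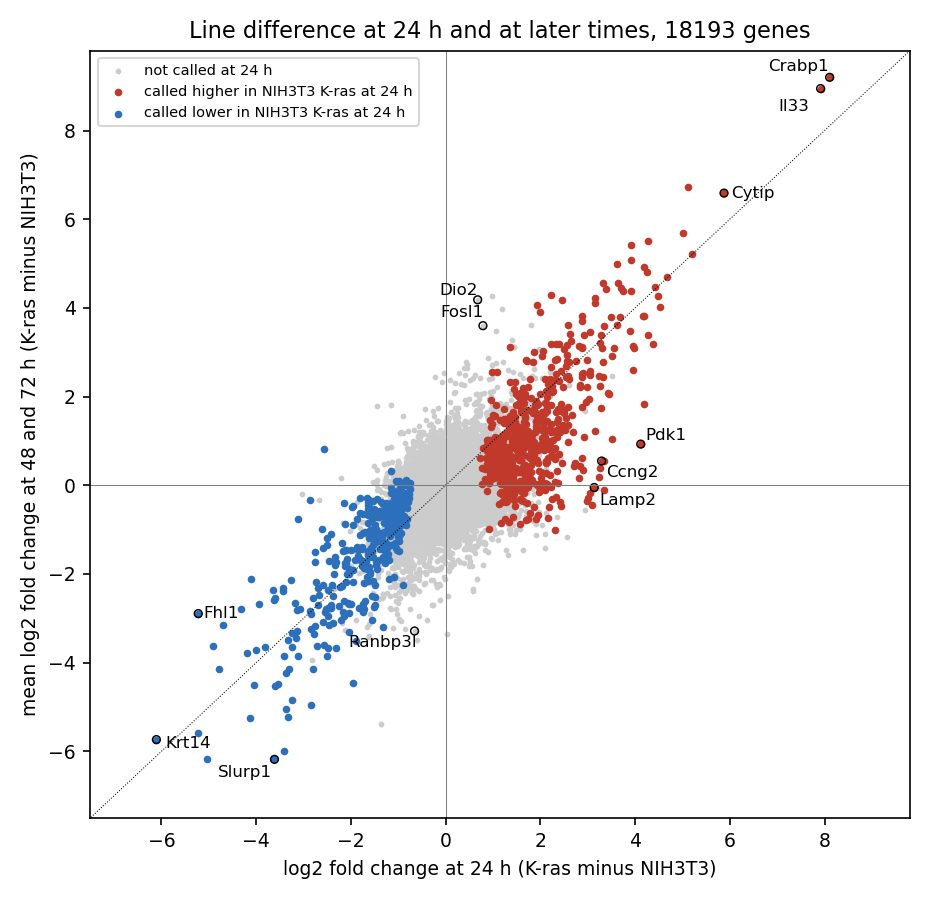
Log2 fold change of each of 18193 genes, K-ras minus NIH3T3, at 24 h (horizontal) against its mean at 48 and 72 h (vertical). Red and blue points were called higher and lower in K-ras at 24 h, grey points were not called, and the dotted line marks equality. Crabp1 (8.11 at 24 h) and Krt14 (-6.11) lie near the dotted line, while Pdk1, Ccng2 and Lamp2 lie near 0 on the vertical axis and Dio2 and Fosl1 near 0 on the horizontal one.

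**Figure D4:**
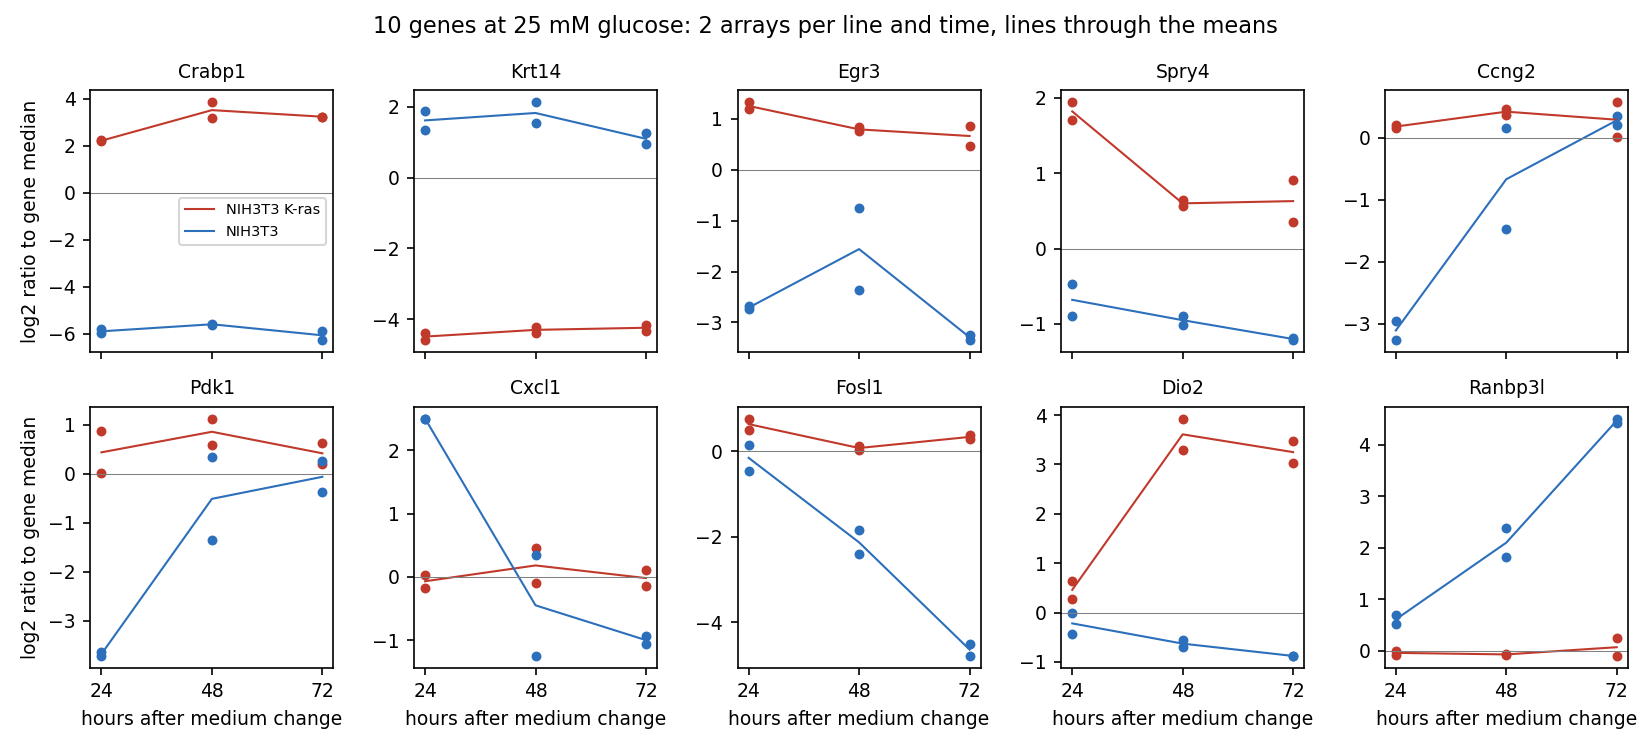
Log2 ratio to the gene's median for 10 genes at 24, 48 and 72 h after the medium change in 25 mM glucose. Red is K-ras and blue NIH3T3, points are single arrays and lines join the means of 2 arrays. Crabp1 and Krt14 stay apart at all 3 times, the NIH3T3 values of Ccng2 and Pdk1 are low at 24 h and near those of K-ras at 72 h, and Fosl1 and Ranbp3l part late.

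Calls were spread unevenly over the chromosomes (RefSeq, GRCm38.p6, which placed 99.7% of the genes). On chromosome 12, 58 of 624 genes (9.29%) were higher in K-ras and 2 (0.321%) lower. On chromosome X, 56 of 618 genes (9.06%) were higher and 6 (0.971%) lower. On chromosome 8 the balance was opposite, with 14 of 940 genes (1.49%) higher and 46 (4.89%) lower. The medians over all genes of these chromosomes were shifted too: relative to all genes, the median log2 fold change was 0.16 on chromosome 12, 0.12 on X and -0.19 on chromosome 8. It was 0.13, 0.05 and -0.16 at 48 h and 0.16, 0.14 and -0.22 at 72 h, in other cultures. Array by array, the chromosome 8 median relative to all genes was -0.06 and -0.09 in K-ras, against 0.17 and 0.11 in NIH3T3, and that of chromosome 12 was 0.05 and 0.06 against -0.09 and -0.08. The arrays of the lines did not overlap in either case, but this was also so on several other chromosomes. The medians of chromosome 4 were -0.01 and -0.02 in K-ras, against 0.04 and 0.03 in NIH3T3. Those of chromosome 9 were 0.02 and 0.03 against -0.03 and -0.05. Blocks of genes were made only for chromosomes 8, 12 and X, which stood out in these same data, so their counts are a description. In consecutive blocks of 60 genes, with fewer in the last, 16 of 16 on chromosome 8 lay below the median of all genes. Above it lay 11 of 11 on chromosome 12 and 10 of 11 on X. At 48 and 72 h, 15 of 16 blocks on chromosome 8 lay below it at each time, 10 and 11 of 11 on chromosome 12 above it, and 10 and 11 of 11 on X above it. Without each of the 4 arrays in turn, the chromosome 8 shift was -0.25 to -0.19 that of chromosome 12 was 0.14 to 0.21 and that of X 0.10 to 0.15. The share called lower on chromosome 8 was 0.96% to 3.51%, against 0.59% to 1.23% of all genes, and the share called higher on chromosome 12 was 3.04% to 4.01%, against 0.97% to 1.94% of all genes, and on X it was 2.43% to 4.85%. No test was made over chromosomes, and the copy number of these lines was not measured here.

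**Figure D5:**
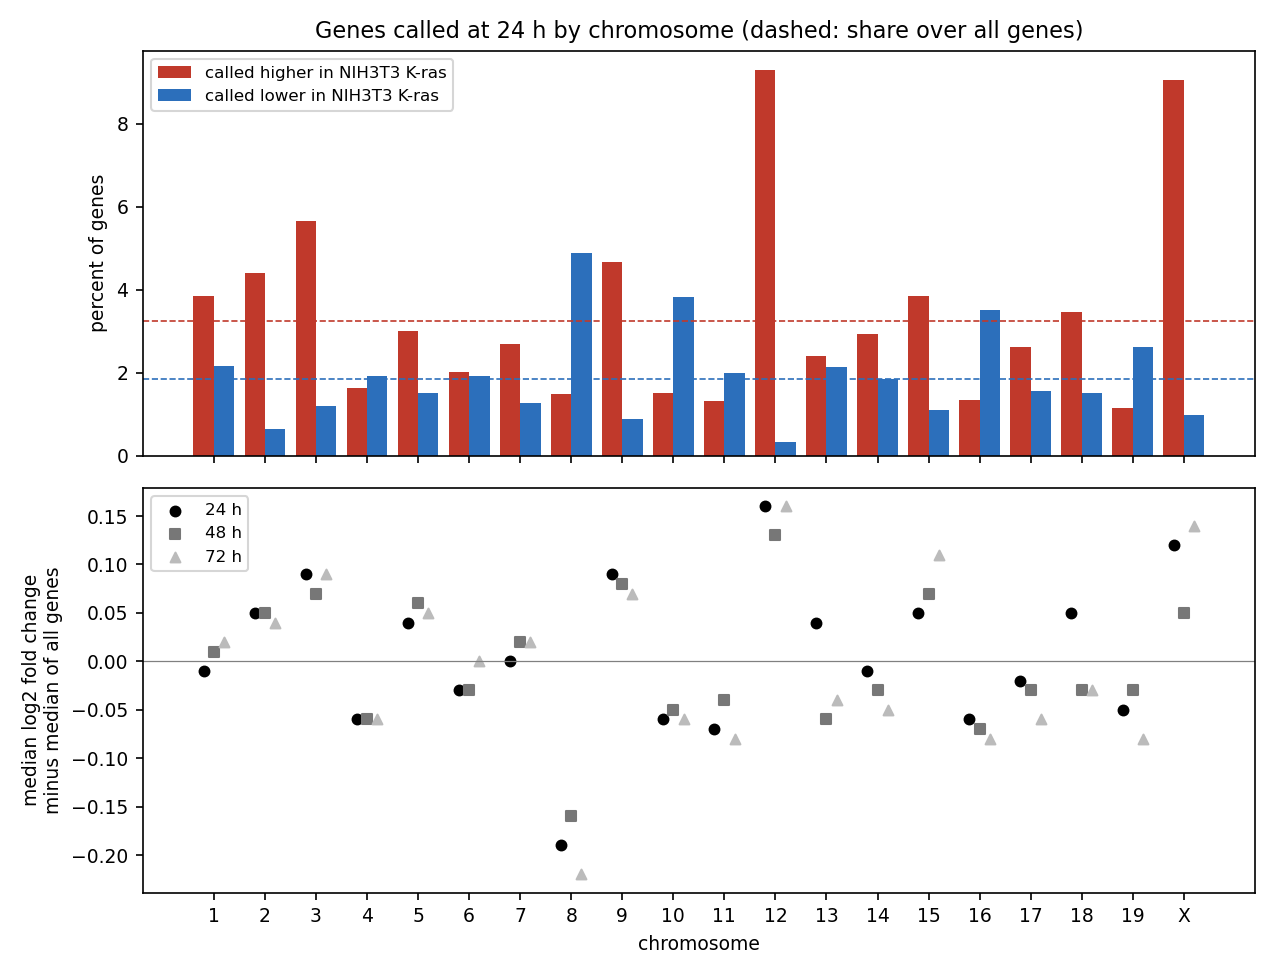
Upper panel, percent of the genes of each chromosome called higher (red) or lower (blue) in K-ras than in NIH3T3 at 24 h, with the shares over all genes dashed. Lower panel, median log2 fold change of each chromosome minus that of all genes at 24, 48 and 72 h. Chromosomes 12 and X carry the highest shares of rises (9.29% and 9.06%), and chromosome 8 the highest share of falls (4.89%) with medians of -0.19, -0.16 and -0.22.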

How the data were processed

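RNA of 28 cultures was hybridised to Affymetrix mouse arrays. Per the submitters' processing notes the authors used RMA, with version and place in the workflow not given in the sources used here. Deposited by the authors were log2 values for 45101 probe sets. After the log was undone, all 45101 had 1 as their median across arrays (tolerance 0.001), so the deposited log2 values are ratios to that median, and depth and background are unknown. Probe sets with 1 symbol (34945) were reduced to 18193 genes by keeping, for each, its most variable probe set (SD over the 28 arrays). limma 3.58.1 in R 4.3.3 (lmFit, eBayes) was fitted with 1 coefficient per group to 12 arrays (6 groups, 6 residual degrees of freedom), and Benjamini-Hochberg adjusted p under 0.05 was called. Tested on simulated data with 200 genes changed at 24 h, the fit recovered 21% of changes of 1 and 74% of changes of 2 log2 units, with 4 false calls of 99. The simulated noise was independent between genes and arrays. It held no effect shared by many genes of an array, so these rates need not hold for the real arrays.

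Named were the 12 largest rises and 12 largest falls among called genes without overlap between the lines' arrays, leaving out clone and predicted-gene symbols, up to 4 called members of each of 37 lists, the genes called against later times, and 33 genes by name, 3 of which were not analysed here. Further called list members (Rasgrp3, Pdgfc, Fgf7, Ccl7, Tnc, Itgb7, Itgb5, Itgb1, Twist1) and Krt5 and Krt8 were named after their values were seen. The comparison, the lists and their members were chosen with earlier results of these data known, so counts within a list are no independent evidence of its direction. Replicate numbers did not pair the arrays: deviations of same-numbered arrays correlated between -0.33 and 0.41 over 15 pairs of groups. Figures were drawn with matplotlib 3.10.9.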

Additional observations from a re-analysis of the deposited data

Results flagged for a closer look

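The line difference, K-ras minus NIH3T3, at 24 h was not the same as the mean line difference at 48 and 72 h in 3 genes by the direct test of that change (limma, 12 arrays, adjusted over 18193 genes). The 24 h difference minus the later mean was -3.51 ± 0.34 in Dio2 (adjusted p = 0.0291), -2.81 ± 0.33 in Fosl1 (adjusted p = 0.0477) and 2.63 ± 0.28 in Ranbp3l (adjusted p = 0.0312). Other probe sets of Dio2 showed line differences at 24 h of -0.35 and 0.24. No group held enough arrays for a check of single arrays within groups.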

How the results depend on the processing

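All 106 named genes that were called at 24 h kept their direction in each alternative fit, and 56 kept their call without each of the 4 arrays in turn. Only averaging the probe sets or quantile normalization could have changed a direction. The other fits used the same 24 h values, and the arrays of these genes did not overlap between lines. Of the 924 called genes 923 kept their sign when the probe sets of a gene were averaged. Fewer were called again: 688 (74.5%) with averaged probe sets, 711 (76.9%) from the 4 arrays alone and 623 (67.4%) from the 8 arrays at 24 h. The number called was 891 with averaged probe sets (56.5% of them higher, against 63.7%), 1324 after quantile normalization, 845 of 9097 genes with an SD at or above the median, 1275 with array weights, 912 with a trended and robust prior, 1028 from the 4 arrays alone, 880 from the 8 arrays at 24 h, 1144 without the 6 arrays of the other line's profile and 835 with a difference of at least 1. It was 12 with all 28 arrays and 447 with the 16 arrays at 25 mM glucose, and the cause was not tested. Without 1 array at a time it ranged from 283 to 1419. The fits without an array at 48 h, and without NIH3T3 arrays or K-ras replicate 2 at 72 h, were added after the data were seen.

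For the test against later times, 3 genes were called. The count was 0 with all 28 arrays and with the robust prior, 7 with 16 arrays, 8 after quantile normalization, 6 with array weights, 17 without the 6 arrays, and 0 to 607 without 1 array at a time; the cause was not tested. At 24 h alone that test cannot be made. With the replicate block, 880 genes were called at 24 h, 814 of them among the 924, and 2 in the test against later times. The replicate numbers share only a number, and the block is given for completeness. The 2 arrays of a group and the missing signal over background set the limits.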

Other observations

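Probe sets without a gene symbol were left out of the comparison by gene. Fitted with all 45101 probe sets, 85 of 9160 such probe sets (0.928%) were called at 24 h, 68 higher and 17 lower in K-ras, against 1386 of 45101 (3.07%) over all probe sets and 3.62% of those with 1 symbol. The furthest was probe set 1435605_at, which read 1.78 and 1.78 in K-ras, against -3.25 and -4.10 in NIH3T3 (difference 5.45 ± 0.27, adjusted p = 1.09e-05). Probe set 1417185_at read -3.73 and -3.91 in K-ras, against 0.37 and 0.50 in NIH3T3 (difference -4.26 ± 0.39, adjusted p = 0.000462). Of 932 probe sets that name several genes, 36 (3.86%) were called.

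The genes called higher spanned a median of 29.8 kb of the genome and those called lower 25.4 kb, against 20.2 kb over all genes.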
